A study of Mus musculus with 6 samples.

Results

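The genes described here are those of MHC class I antigen presentation and the processing steps that feed it: the heavy chain genes H2-K1, H2-D1 and H2-T23, the light chain gene B2m, the peptide transporter genes Tap1 and Tap2, the loading factor Tapbp, the immunoproteasome genes Psmb8 and Psmb9, and the transactivator Nlrc5. Every probe set (called a probe below) that the platform annotation assigns to any of these 10 symbols was taken, without regard to its signal. The 10 genes had 31 probes of the 45037 on the array besides controls, of which 26 were assigned to 1 gene and 5 to several genes. The probes were read in brain tissue, cerebellum by the series title, of 3 wild-type mice and 3 Gb5-deficient mice (knockout), with 1 single-colour Affymetrix array per mouse. Gb5 is the G protein beta subunit encoded by Gnb5. The labels give no strain, age, clone or driver for either genotype; they describe littermates matched for age and sex, without saying which mice were littermates. The genotypes were compared to find transcripts of the cerebellum that depend on Gb5.

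MHC class I molecules are a polymorphic heavy chain joined to the light chain beta-2-microglobulin, and they carry peptides from the cytosol to the cell surface for inspection by T cells and NK cells. The proteasome cuts the peptides, the TAP transporter moves them into the endoplasmic reticulum, and tapasin holds the empty heavy chain at the transporter while a peptide is loaded. In the brain, endothelial cells and microglia are known sources of these transcripts, and some neurons also make them. Interferon induces most genes of the pathway.

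The promoters of the classical heavy chain genes H2-K1 and H2-D1 and of the light chain gene B2m are shown first, since both chains are needed for a class I molecule at the surface. RefSeq promoter windows (build GRCm38.p6, 250 bases before to 50 after an annotated start) were found for 8 of the 10 genes, and not for Tap2 and Nlrc5. H2-K1 lies on the minus strand at chr17:34000298-34000597, H2-D1 on the plus strand at chr17:35262844-35263143 and B2m on the plus strand at chr2:122147437-122147736. Capitals mark exact matches, on either strand, to any of 6 motifs: GGGATTC and GGGACTT (forms of the core of an NF-kB site), GTGAAAC and ACTGAAA (forms of the core of an interferon response motif), TGACGC (a form of the X2 box) and CCAAT (the core of the Y box).
H2-K1: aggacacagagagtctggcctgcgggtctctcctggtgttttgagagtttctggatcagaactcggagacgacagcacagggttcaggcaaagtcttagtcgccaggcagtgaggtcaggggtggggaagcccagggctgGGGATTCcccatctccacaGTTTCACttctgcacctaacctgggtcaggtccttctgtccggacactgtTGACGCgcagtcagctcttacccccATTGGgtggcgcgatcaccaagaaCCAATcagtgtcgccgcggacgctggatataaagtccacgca
H2-D1: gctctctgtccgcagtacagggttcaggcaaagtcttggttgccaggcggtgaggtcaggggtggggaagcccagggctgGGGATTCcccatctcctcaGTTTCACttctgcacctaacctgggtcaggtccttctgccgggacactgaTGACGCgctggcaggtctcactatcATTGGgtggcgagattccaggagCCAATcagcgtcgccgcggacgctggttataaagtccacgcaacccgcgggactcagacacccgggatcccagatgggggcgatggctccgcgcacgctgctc
B2m: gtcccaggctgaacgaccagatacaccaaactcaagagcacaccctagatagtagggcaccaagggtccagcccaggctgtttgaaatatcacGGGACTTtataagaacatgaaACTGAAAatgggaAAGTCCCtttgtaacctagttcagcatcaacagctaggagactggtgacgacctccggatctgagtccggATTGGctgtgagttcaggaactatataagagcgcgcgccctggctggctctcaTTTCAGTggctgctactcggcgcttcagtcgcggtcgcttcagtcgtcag
In the windows of H2-K1 and H2-D1 the same 3 motifs stood in the same order and at the same spacing. The match to GTGAAAC, on the opposite strand, began 19 bases and TGACGC 69 bases after the start of GGGATTC in both. The H2-K1 and H2-D1 windows were identical at 206 of 228 aligned positions (90.4%). Their longest shared runs were of 47 and 40 bases, the first with GGGATTC and the second with GTGAAAC in it, and each run occurred in 3 of all 32851 promoter windows: that of H2-D1 and those of the 2 annotated starts of H2-K1, which lie 14 bases apart. The B2m window held none of these 3 motifs but held GGGACTT and ACTGAAA, each at 2 places. Over all windows, GGGATTC was found in 3.08%, GGGACTT in 5.44%, GTGAAAC in 2.5%, ACTGAAA in 4.98%, TGACGC in 7.4% and CCAAT in 37.4%. Psmb8 also held GTGAAAC, and CCAAT was found in 7 of the 8 genes, all but Psmb8. The motifs were chosen with the sequences in view, and a match is a description of letters, not of binding. The windows of Tap1 and Psmb9, which face away from each other, shared 275 bases. Their CCAAT matches are the same site in that stretch, read on opposite strands.

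The arrays were compared on the log2 scale of the deposited signals. A probe was tested when its mean over the 6 arrays was above 4.70, a level that left out the dimmest 30% of probes, and 31526 probes were tested together. Of the member probes 18 were tested, covering 9 of the 10 genes, and 13 were not. Array medians lay between 6.48 and 6.57, and the median difference over all tested probes was 0.01. The targeted gene was checked first: the bright Gnb5 probe read 8.80, 8.51 and 8.70 on the wild-type arrays and 3.65, 3.36 and 2.96 on the knockout arrays. Knockout array 6 stood apart. Its Xist probe 1427262_at read 6.64 against 11.1 to 11.3 on the other arrays, its Eif2s3y probe 1417210_at (Y-linked) read 11.80 against 3.19 to 3.43, and its 3′ minus 5′ difference for Gapdh controls was 1.58 against 1.03 to 1.14. These signals go against the sex matching that the labels describe. Cerebellar neuron markers (11 tested of 12 listed) averaged 11.74 to 11.92 in wild type and 11.64 to 11.98 in knockout, and forebrain neuron markers (4 of 8) 6.25 to 6.30 and 6.21 to 6.33.

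No member probe passed an adjusted p of 0.05 in limma, a fit in which 11 of all 31526 probes (0.0349%) passed. At an unadjusted limma p under 0.05, 6 of the 18 tested member probes were higher in knockout and none lower, against 4.89% higher and 3.78% lower over all tested probes. In 5 of the 18, all belonging to H2-K1, H2-D1 or Tap1, all 3 knockout arrays lay above all 3 wild-type arrays, against 9.08% of all tested probes; in none did they all lie below, against 6.03%. The median difference over the 18 probes was 0.08, and values above 0 were found in 14, against 53.1% of all tested probes. Probes of H2-K1 and H2-D1 make up 8 of the 18, and 7 of those 8 carry the suffix _x_at, which marks probe sets that can also match related transcripts, so they are not independent readings. The test compares these mice only, and in whole tissue a change in the number of cells of a type and a change in RNA per cell cannot be told apart.

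**Figure D1:**
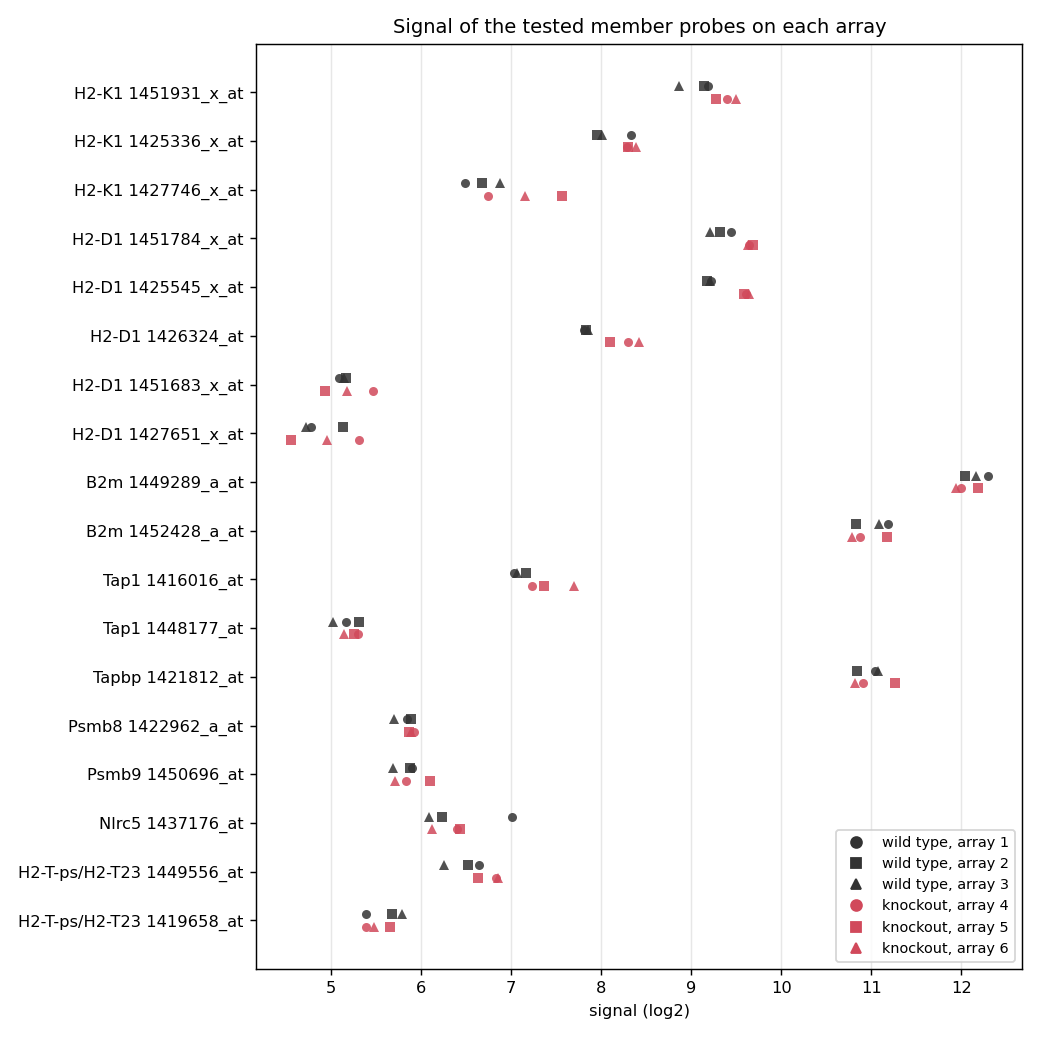
Signal (log2, horizontal axis) of the 18 tested member probes on each of the 6 arrays; dark symbols are wild type and red symbols knockout, and each shape within a colour is 1 array. The 3 bright H2-D1 probes show all knockout arrays to the right of all wild-type arrays, while for B2m and Tapbp the genotypes are mixed.

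H2-D1 encodes a classical heavy chain, which presents peptides to CD8 T cells. Its probe 1425545_x_at read 9.22, 9.17 and 9.21 on the wild-type arrays and 9.61, 9.59 and 9.64 on the knockout arrays. The arrays of a genotype differed by less than 0.1, and the genotypes did not overlap. The difference was 0.41 (log2, SE 0.09, 95% interval 0.21 to 0.61), a 1.33-fold higher signal in knockout, with a limma adjusted p of 0.342. Probe 1426324_at, the only tested H2-D1 probe without the _x_at suffix, read 7.81, 7.83 and 7.86 on the wild-type arrays and 8.29, 8.09 and 8.42 on the knockout arrays. Here the wild-type arrays lay close together and the knockout arrays were spread above them. Its difference was 0.44 (SE 0.12, interval 0.17 to 0.71; limma adjusted p = 0.445). The brightest H2-D1 probe, 1451784_x_at, read 9.45, 9.32 and 9.20 on the wild-type arrays and 9.65, 9.69 and 9.63 on the knockout arrays, a difference of 0.33 (SE 0.10, interval 0.10 to 0.56; limma adjusted p = 0.491). Again the lowest knockout array lay above the highest wild-type array. With any single array left out, the difference stayed between 0.40 and 0.42 for 1425545_x_at, between 0.36 and 0.53 for 1426324_at and between 0.27 and 0.39 for 1451784_x_at. Without knockout array 6 it was 0.36 for 1426324_at.

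The dimmer H2-D1 probes did not share this pattern. Probe 1451683_x_at read 5.09, 5.17 and 5.14 on the wild-type arrays and 5.47, 4.93 and 5.17 on the knockout arrays, with a difference of 0.06 (SE 0.15). Probe 1427651_x_at read 4.77, 5.13 and 4.72 on the wild-type arrays and 5.31, 4.55 and 4.95 on the knockout arrays, with a difference of 0.06 (SE 0.20). In both, knockout array 4 was the highest of the 6 arrays and knockout array 5 the lowest. Without knockout array 4 the differences were -0.08 and -0.12. The other 4 H2-D1 probes lay under the filter. Of these, 1450170_x_at read 4.63, 4.40 and 4.22 on the wild-type arrays and 4.73, 4.60 and 4.87 on the knockout arrays.

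H2-K1 encodes the other classical heavy chain measured here. Its brightest probe, 1451931_x_at, read 9.19, 9.14 and 8.86 on the wild-type arrays and 9.40, 9.28 and 9.50 on the knockout arrays. The genotypes did not overlap, and wild-type array 3 was the lowest. The difference was 0.33 (SE 0.12, interval 0.05 to 0.61; limma adjusted p = 0.545), and 0.23 without wild-type array 3. Probe 1425336_x_at read 8.33, 7.95 and 8.01 on the wild-type arrays and 8.29, 8.29 and 8.39 on the knockout arrays. Wild-type array 1 lay among the knockout arrays, and the difference was 0.23 (SE 0.13; limma adjusted p = 0.631). Probe 1427746_x_at read 6.48, 6.68 and 6.87 on the wild-type arrays and 6.75, 7.56 and 7.16 on the knockout arrays. Knockout array 5 was the highest and knockout array 4 lay within the wild-type range; the difference of 0.48 (SE 0.21; limma adjusted p = 0.574) became 0.28 without knockout array 5. The last H2-K1 probe, 1450534_x_at, lay under the filter, between 3.26 and 3.39 on all arrays.

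H2-T23 encodes Qa-1, a non-classical heavy chain recognised by NK receptors. It had no probe of its own: both of its probes were also assigned to the pseudogene H2-T-ps. Their differences had opposite signs. Probe 1449556_at read 6.64, 6.52 and 6.26 on the wild-type arrays and 6.83, 6.63 and 6.85 on the knockout arrays, a difference of 0.30 (SE 0.14, interval -0.01 to 0.61; limma adjusted p = 0.594). Wild-type array 1 lay just above knockout array 5, so the genotypes overlapped, and the difference was 0.19 without wild-type array 3. Probe 1419658_at read 5.39, 5.68 and 5.79 on the wild-type arrays and 5.39, 5.65 and 5.47 on the knockout arrays, a difference of -0.11 (SE 0.14; limma adjusted p = 0.802), which ran from -0.229 without wild-type array 1 to -0.030 without wild-type array 3. The other 3 shared probes lay under the filter. The probe assigned to both H2-K1 and H2-D1 (1424948_x_at) averaged 4.54 in wild type and 4.60 in knockout, that assigned to H2-Q5 and H2-K1 (1451593_at) 3.08 and 3.00, and that assigned to Gm38417, H2-Q2 and H2-D1 (1422348_at) 4.57 and 4.52.

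**Figure D2:**
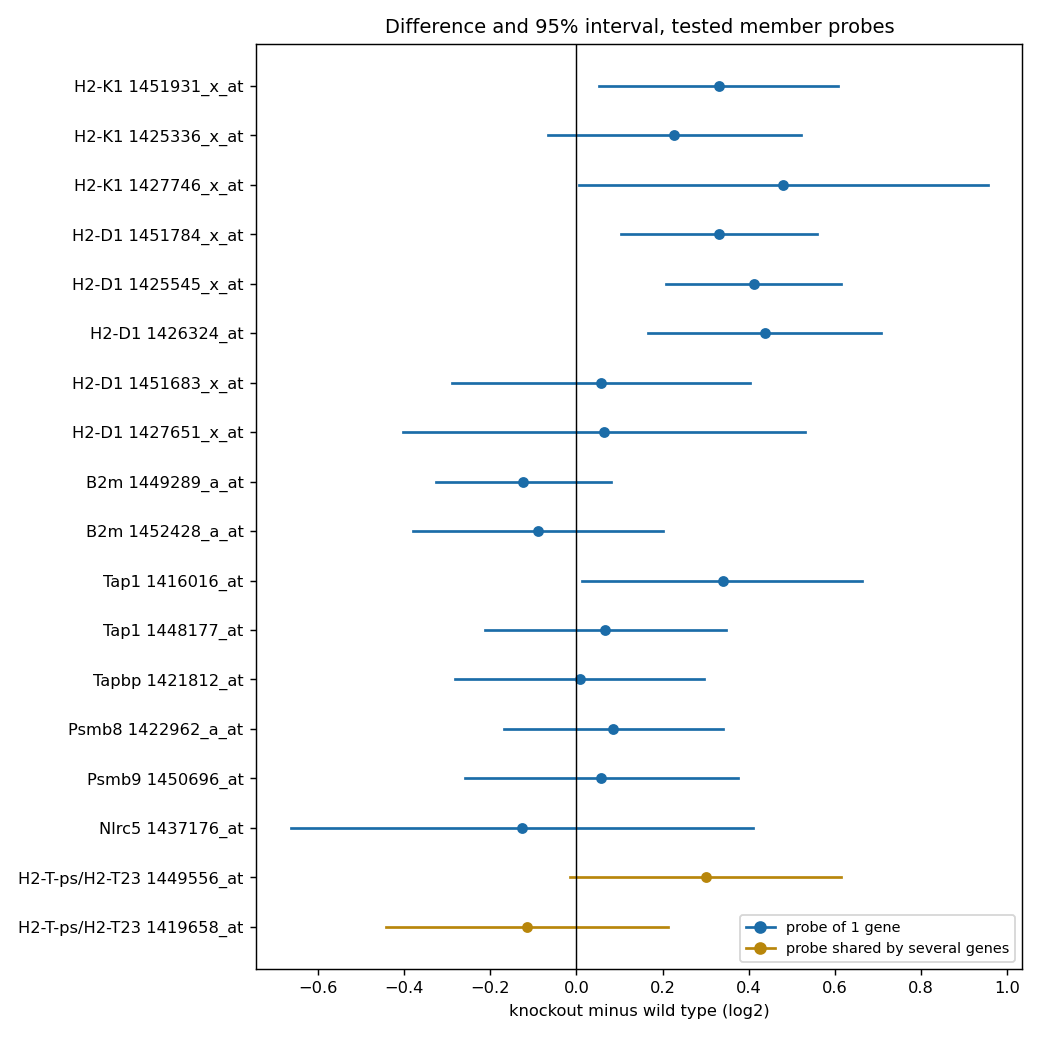
Knockout minus wild type (log2, points) with the 95% interval of the limma fit (lines) for the 18 tested member probes; blue marks probes of 1 gene and ochre probes shared with H2-T-ps. Intervals above 0 are those of 2 H2-K1 probes, 3 H2-D1 probes and 1 Tap1 probe, and none lies below 0.

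B2m encodes the light chain that every class I heavy chain needs to reach the surface. Its probe 1449289_a_at read 12.29, 12.04 and 12.16 on the wild-type arrays and 11.99, 12.19 and 11.95 on the knockout arrays, a difference of -0.12 (SE 0.09, interval -0.33 to 0.08; limma adjusted p = 0.682). Probe 1452428_a_at read 11.18, 10.83 and 11.09 on the wild-type arrays and 10.88, 11.17 and 10.79 on the knockout arrays, a difference of -0.09 (SE 0.13, interval -0.38 to 0.20; limma adjusted p = 0.832). On both probes the highest arrays were wild-type array 1 and knockout array 5, and the lowest was knockout array 6. The genotypes overlapped on both. With 1 array left out the differences ran from -0.197 (without knockout array 5) to -0.059 (without wild-type array 1) and from -0.201 (without knockout array 5) to -0.010 (without knockout array 6). The interval of the first probe allows a signal in knockout from 0.798 to 1.06 times that of wild type.

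Tap1 encodes a subunit of the peptide transporter. Its probe 1416016_at read 7.04, 7.17 and 7.07 on the wild-type arrays and 7.23, 7.36 and 7.69 on the knockout arrays. The genotypes did not overlap, and knockout array 6 was the highest. The difference was 0.34 (SE 0.14, interval 0.01 to 0.66; limma adjusted p = 0.570) and became 0.21 without knockout array 6. The second tested Tap1 probe, 1448177_at, read 5.16, 5.31 and 5.02 on the wild-type arrays and 5.29, 5.25 and 5.15 on the knockout arrays, with overlap and a difference of 0.07 (SE 0.12). The other Tap1 probes stayed under the filter, at 2.41 and 2.47 (1420274_at) and at 2.78 and 2.71 (1449803_x_at) in wild type and knockout. Tap2, the partner subunit, had 1 probe, and it lay just under the filter: 1453913_a_at read 4.44, 4.52 and 4.64 on the wild-type arrays and 4.66, 4.79 and 4.60 on the knockout arrays, with a mean over all arrays of 4.61. It was not tested. The tested member probe nearest above the filter was H2-D1 probe 1427651_x_at, with a mean of 4.91.

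Tapbp encodes tapasin. Its bright probe 1421812_at read 11.04, 10.84 and 11.08 on the wild-type arrays and 10.91, 11.26 and 10.81 on the knockout arrays. The genotypes were mixed, and the difference was 0.01 (SE 0.13, interval -0.28 to 0.30; limma adjusted p = 0.989). Probe 1450378_at, under the filter, averaged 4.45 in wild type and 4.12 in knockout. Psmb8 and Psmb9 encode catalytic subunits that replace constitutive ones in the immunoproteasome. Psmb8 probe 1422962_a_at read 5.84, 5.88 and 5.69 on the wild-type arrays and 5.92, 5.87 and 5.89 on the knockout arrays, a difference of 0.09 (SE 0.11, interval -0.17 to 0.34), and 0.031 without wild-type array 3. Psmb9 probe 1450696_at read 5.90, 5.88 and 5.69 on the wild-type arrays and 5.83, 6.10 and 5.71 on the knockout arrays, a difference of 0.06 (SE 0.14, interval -0.26 to 0.37). The genotypes overlapped on both, and the second Psmb8 probe, 1444619_x_at, averaged 3.27 and 3.33. Nlrc5 encodes the transactivator that drives class I genes through the SXY promoter boxes. Its probe 1437176_at read 7.01, 6.22 and 6.08 on the wild-type arrays and 6.39, 6.43 and 6.12 on the knockout arrays. Wild-type array 1 stood above the other 5 arrays; the difference was -0.13 (SE 0.23, interval -0.66 to 0.41), and 0.16 without that array.

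In gene order on chromosome 17 the members stand as Tapbp, H2-K1, Psmb9, Tap1, Psmb8, Tap2, H2-D1 and H2-T23, while B2m is on chromosome 2 and Nlrc5 on chromosome 8. Between the outermost of these lie 182 other genes, of which 81 had a tested probe of their own. None passed in limma. At an unadjusted limma p under 0.05 there were 3 higher and 3 lower, against 742 and 380 of all 14079 tested genes. Their median difference was 0.03, against 0.03 for the brightest probe of all 14079 tested genes. The largest values were 0.46 for Ager, a receptor for advanced glycation end products, and 0.40 for BC051142; the lowest were -0.55 for the class II gene H2-Aa and -0.33 for the histone methyltransferase gene Ehmt2.

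Other genes of the pathway were taken from lists of known roles, each gene represented by its brightest single-gene probe. Of 29 class I heavy chain and class I-like genes besides the members, 7 were tested, with 3 differences above 0, 4 below and a median of -0.04; none passed in limma and none had an unadjusted p under 0.05. H2-Bl had a difference of 0.29 (SE 0.81) and H2-M3, which presents formylated peptides, one of 0.02; H2-T24 had -0.26 (SE 0.23) and the iron regulator Hfe -0.22 (SE 0.24). H2-Bl varied far more within a genotype than between them: it read 6.28, 8.90 and 8.80 on the wild-type arrays and 6.70, 8.97 and 9.16 on the knockout arrays. Probes shared by several other class I genes were also read. That of H2-Q9 and H2-Q7 (1418536_at), singled out after its values were seen, read 6.04, 6.26 and 6.10 on the wild-type arrays and 6.39, 6.58 and 6.74 on the knockout arrays. It was higher on all knockout arrays, by 0.44 (SE 0.13; limma adjusted p = 0.497). That of H2-T9, H2-T22 and H2-T10 (1449875_s_at) averaged 8.25 in wild type and 8.43 in knockout.

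**Figure D3:**
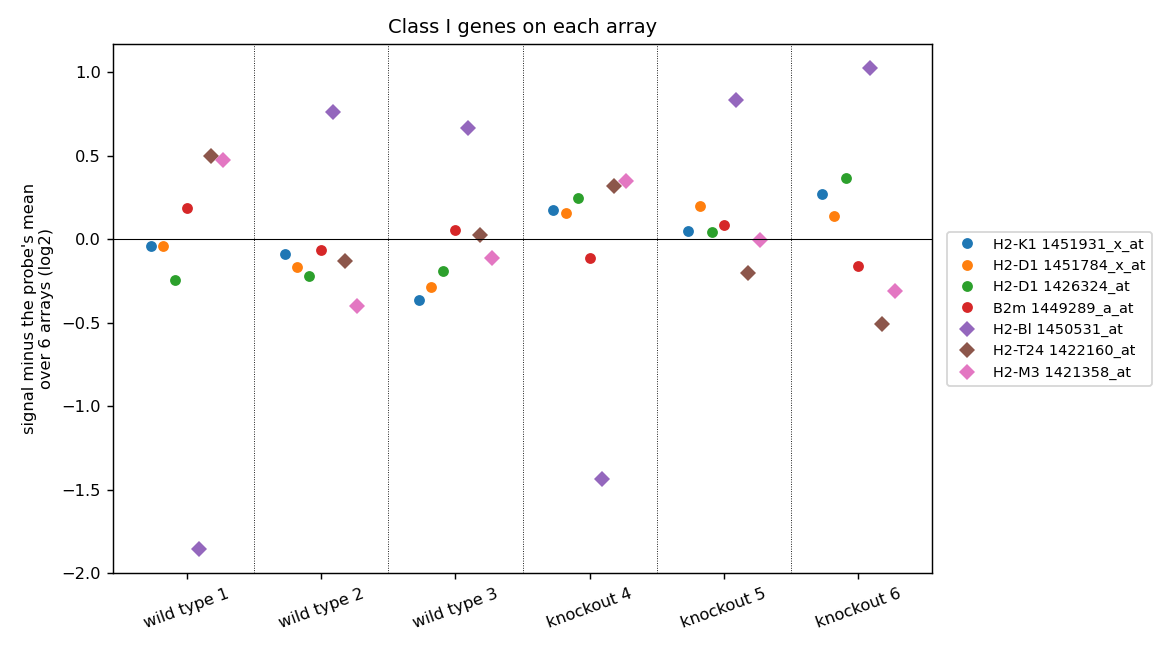
Signal of each probe minus its own mean over the 6 arrays (log2, vertical axis) for 4 member probes (circles) and 3 other class I genes (diamonds), by array. The H2-D1 and H2-K1 probes lie above 0 on knockout arrays and below on wild-type arrays, while H2-Bl is lowest on wild-type array 1 and knockout array 4.

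Peptide loading and trimming genes (11 tested of 13) had a median difference of 0.06, and none passed in limma. Against 742 of all 14079 tested genes, 1 of the 11 was higher at an unadjusted limma p under 0.05. This was Tapbpl, a tapasin-related peptide editor, which read 5.86, 5.88 and 5.72 on the wild-type arrays and 6.37, 6.17 and 6.06 on the knockout arrays, without overlap (0.38, SE 0.13; limma adjusted p = 0.518). The translocon gene Sec61a1 had a difference of 0.13, and the chaperone genes Calr and Canx, whose products hold folding heavy chains, had -0.07 and -0.20. Proteasome partners (7 tested of 8) had a median of -0.03, with no gene passing and none under an unadjusted p of 0.05. Psmb10, the third immunoproteasome subunit gene, had a difference of 0.16 (SE 0.14) and the activator gene Psme1 0.15 (SE 0.16); Psme3 had -0.10 and the constitutive subunit gene Psmb7 -0.18 (SE 0.11).

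Regulators of class I transcription (21 tested of 24) had a median of 0.03 and no passing gene in limma. At an unadjusted limma p under 0.05, 2 were higher and 2 lower, against 742 and 380 of all 14079 tested genes. The genotypes lay apart in 3 with knockout higher and in 3 with knockout lower, against 1425 and 678 of the 14079. The interferon receptor genes Ifnar2 and Ifngr2 had differences of 0.34 (SE 0.10) and 0.29 (SE 0.13), both without overlap of the genotypes. Irf9, which carries type I interferon signals to the nucleus, read 8.04, 7.73 and 7.81 on the wild-type arrays and 7.55, 7.24 and 7.19 on the knockout arrays, also without overlap (-0.54, SE 0.14; limma adjusted p = 0.435). Nfya, the other gene lower at that unadjusted p, had -0.21 (SE 0.09), without overlap. Irf2 had a difference of -0.27 (SE 0.14), with overlap and an unadjusted limma p of 0.082. The MHC class II pathway (9 tested of 13) had a median of -0.07 and no passing gene in limma. At an unadjusted limma p under 0.05, 2 were lower, against 380 of all 14079 tested genes. H2-Aa, a class II chain, read 6.50, 6.22 and 6.22 on the wild-type arrays and 5.84, 5.63 and 5.83 on the knockout arrays (-0.55, SE 0.13; limma adjusted p = 0.395). The invariant chain gene Cd74 read 6.856, 6.998 and 6.923 on the wild-type arrays and 6.44, 6.58 and 6.44 on the knockout arrays (-0.44, SE 0.11; limma adjusted p = 0.413). All knockout arrays lay below all wild-type arrays in both, the opposite side from the brightest H2-K1 probe and the 3 bright H2-D1 probes. Of the 9 tested genes of this list, 3 lay apart in this way, against 678 of all 14079 tested genes. In 4 of the 9 the difference was above 0, and the class II gene H2-Ab1 had -0.07 with overlap. The contrast with class I was not tested. Lgmn had a difference of 0.17 and H2-DMb2 one of 0.13.

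A list of immune receptor and receptor chain genes, drawn up for class I recognition but not limited to proteins that bind class I, was mostly under the filter, with 3 tested of 14. Cd247, which encodes the zeta chain of the T cell receptor complex, had a difference of 0.15, Pilra 0.02 and Cd160 -0.25; none passed in limma or had an unadjusted p under 0.05. Of 27 interferon-stimulated genes 23 were tested, with a median of -0.05. Some, singled out after their values were seen, stood above all other arrays on wild-type array 1. Ifit1 read 6.27 there against 4.44 to 4.70, and Usp18 6.88 against 5.46 to 5.58. Oasl2 read 6.12 against 4.425 to 4.926, and Ifit3 7.39 against 6.46 to 6.60. Not all did so: Isg20 read 6.835 there, below 8.30 and 8.42 on the other wild-type arrays. The cause was not tested. Rsad2, an antiviral enzyme, fell by 2.17 (SE 0.22; limma adjusted p = 0.0236), from 8.96, 9.76 and 9.82 to 7.21, 7.39 and 7.42. No gene of this list passed when any array but wild-type array 1 was left out, and 2 passed without that array; with all arrays, none passed in a fit without the intensity trend. The nuclease gene Isg20 had a difference of -2.03 (SE 0.37, limma adjusted p = 0.257), and Parp14 and Xaf1 had 0.20 and 0.19. All 3 tested erythroid markers were also lower on all knockout arrays, with -2.08 for Alas2, -1.90 for Slc4a1 and -0.60 for Hbb-b2. None of these 3 passed in limma. Rsad2, Isg20, Alas2 and Slc4a1 were lower on wild-type array 1 than on the other wild-type arrays, and Hbb-b2 was not. A link between red cell content and the Rsad2 and Isg20 values was not tested.

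**Figure D4:**
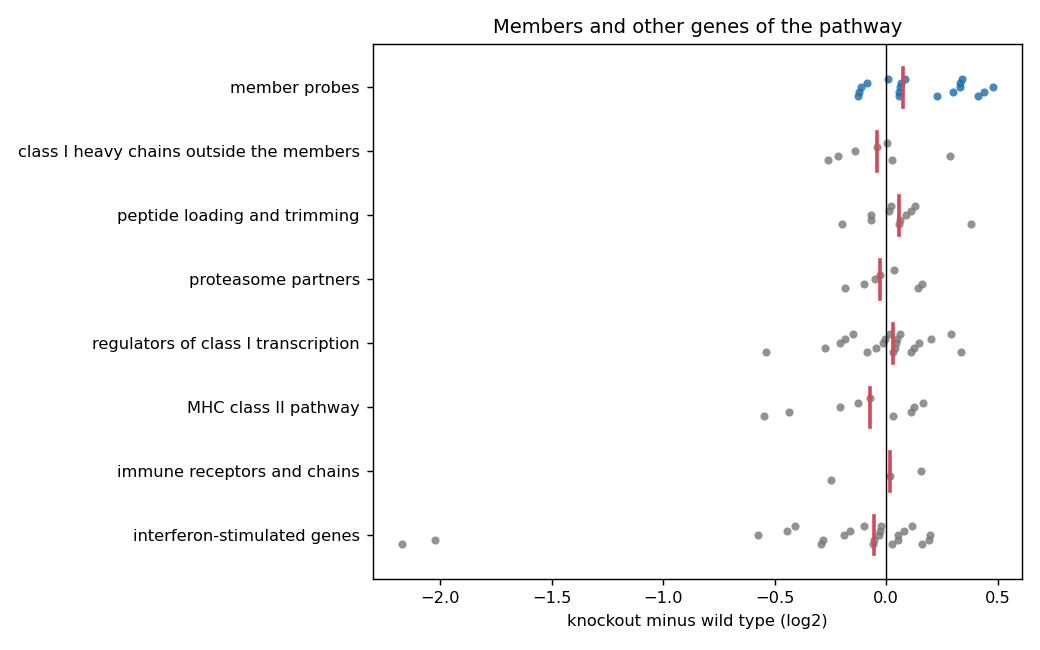
Knockout minus wild type (log2, horizontal axis) for the 18 tested member probes (blue) and the tested genes of the 7 other lists (grey, 1 point a gene), with the median of each list as a red bar. List medians lie between -0.07 and 0.08, and the lowest points are Rsad2 and Isg20 among interferon-stimulated genes.

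Markers of cells that carry class I transcripts, and of some other cell types, were set beside these values. The mean level over 10 of 12 microglial markers was 8.26 to 8.37 in wild type and 8.18 to 8.45 in knockout, and that over 9 of 12 endothelial markers was 9.02 to 9.05 and 8.95 to 9.14; the genotypes overlapped for both. Only 3 of 12 lymphocyte markers were above the filter, at 5.56 to 5.72 and 5.56 to 5.70. Erythroid markers (3 of 8) averaged 8.84 to 9.89 in wild type and 7.85 to 8.21 in knockout, without overlap, and meningeal and fibroblast markers (8 of 9) 9.48 to 9.64 and 9.29 to 9.43, also without overlap. Myelin markers (7 of 8) were likewise apart, at 11.86 to 11.91 and 11.68 to 11.83. Choroid plexus markers (8 of 8) averaged 7.32 to 8.915 in wild type and 6.742 to 8.37 in knockout, with overlap. They were highest on wild-type array 1, at 8.915, and lowest on knockout array 4, at 6.742. The part of any of these cell types in the values of the class I genes was not tested.

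As a description of likeness, the genes whose brightest probe followed that of H2-K1 most closely over the 6 arrays were Stfa2l1, Ociad2, Ada, Acsbg1 and Tlx3, with Pearson's r from 0.972 to 0.993. Those closest to H2-D1 were Paupar, Trub1, Cntn6, D630039A03Rik and Gfra1, with r from 0.985 to 0.991. The lists had no gene in common, and none of the 10 genes passed in limma. All 10 differences were above 0 (from 0.11 to 0.51), which the choice of genes fixed in advance. The genes were picked to follow probes whose knockout arrays all lay above their wild-type arrays. The r values are the highest among all tested genes outside the members over only 6 arrays, which share their normalization.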

How the data were processed

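Genotypes came from the sample titles. The authors' deposited table holds 1 log2 signal per probe for each array. The submitters' processing notes name RMA and Partek, without versions. RMA corrects background, quantile-normalizes arrays and summarises each probe set, so a shift of all transcripts together would go unseen. No scan date or detection call was used here. The number of arrays limits precision (median SE 0.13, log2).

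Of 45101 probes 64 are controls; 34957 were assigned to 1 gene, 920 to several and 9160 to none. Symbols were updated by Entrez identifier from a RefSeq gene table (GRCm38.p6), where 34741 of the 1-gene probes matched. Every tested probe was fitted in limma 3.58.1 under R 4.3.3 (moderated variance with an intensity trend; two-sided; Benjamini-Hochberg over 31526 probes; threshold 0.05). Plain permutation of 3 against 3 arrays cannot give a p below 0.1 and was not used. The fit was tested on simulated data. The members and lists were chosen with earlier results of these data known. Named genes are all member probes and, per list, passing genes and the 2 largest differences in each direction. A few further genes were named after their values were seen. Likeness was ranked by Pearson's r. Alternatives were other filters, 1 value a gene, other normalizations and variance models, array weights, another threshold and each array left out. P-values set a difference against the spread between these mice, moderated over all tested probes.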

Additional observations from a re-analysis of the deposited data

How the results depend on the processing

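No member probe passed an adjusted p of 0.05 in any alternative run, or 0.10 with all arrays; the lowest adjusted p was 0.21, for H2-D1 probe 1425545_x_at with array weights. The number of all probes or genes passing was 11 in the fit reported, 4 with a filter at the 50th percentile, 5 with 1 probe a gene, 5 with the mean of a gene's probes, 7 without an intensity trend and 6 to 19 with 1 array left out. The median over the member probes, 0.08 in the fit reported, was 0.33 with the filter at the 50th percentile, which keeps fewer of them. It was -0.024 with the mean of each gene's probes. That mean takes in dim probes and passed the filter only for H2-K1, H2-D1, B2m, Tapbp, Psmb9 and Nlrc5. With 1 array left out the member median ran from 0.056 (without wild-type array 3) to 0.215 (without knockout array 5). It was 0.13, 0.146 and 0.125 without wild-type array 1, wild-type array 2 and knockout array 6. It was 0.145 with array weights. Of the 18 tested member probes 12 kept their sign in every alternative run, among them all bright H2-K1, H2-D1 and B2m probes. The others changed sign at small values. Tapbp probe 1421812_at was -0.160 with the mean of its gene's probes, -0.018 with array medians subtracted and -0.072 with array weights. With 1 array left out this probe ran from -0.126 to 0.098, Nlrc5 from -0.305 to 0.158, Psmb9 from -0.052 to 0.141, Tap1 probe 1448177_at from -0.004 to 0.138, and H2-D1 probes 1451683_x_at and 1427651_x_at from -0.083 to 0.188 and from -0.123 to 0.257. The cause was not tested. No paired analysis was possible because the arrays are numbered 1 to 6 with no number shared between genotypes. With 3 arrays a genotype, the typical 95% interval of a single probe, not adjusted for the number of probes tested, was ± 0.29 (log2). Differences of the size seen for the bright H2-K1 and H2-D1 probes lie near that width. The adjusted test asks for more. H2-D1 probe 1425545_x_at, at 0.41 (SE 0.09), had a limma adjusted p of 0.342. Rsad2 probe 1421009_at, at -2.20 (SE 0.25), passed with one of 0.0493. The lack of passing member probes therefore does not exclude differences of this size.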

Other observations

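Some class I genes near the members differed between arrays of the same genotype. H2-Bl read 6.28 on wild-type array 1 and 6.70 on knockout array 4, and 8.80 to 9.16 on the other 4 arrays, a range of 2.88 on the log2 scale. H2-T24 was highest on those same arrays, at 10.38 and 10.20 against 9.37 to 9.90 on the others. H2-M3 was also highest there, at 6.68 and 6.56 against 5.81 to 6.21. The bright probes of H2-K1 and H2-D1 had ranges of 0.64 and 0.48 and did not set these arrays apart. Some dimmer member probes did so in part. Probe 1419658_at, shared by H2-T23 and H2-T-ps, was lowest there, at 5.39 on both against 5.47 to 5.79. H2-K1 probe 1427746_x_at was the lowest of each genotype there, at 6.48 and 6.75, though wild-type array 2 read 6.68. Ehmt2, which lies in the same stretch of chromosome 17, read 10.12 on wild-type array 1 and 8.64 to 9.01 on the other 5 arrays. These genes and probes were singled out after their values were seen, and no test was made.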
